A study of Mus musculus with 27 samples.

Results

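The loss of complement C3 was examined in mouse retinas that also carried 1 functional copy of Gne. The members are the libraries whose titles give Gne+/- with C3-/- (6 libraries) and Gne+/- with intact C3 (7 libraries), 13 of the 27 libraries in the series. Both groups are Gne+/-, so the genotypes given in the titles differ at C3 alone. The Gne+/- mice are C3+/+, and the Gne+/- C3-/- mice are homozygous for the C3 knockout. Each library was made from the retina of 1 mouse aged 9 months, with 100 ng of total RNA and a kit that reads the 3′ ends of transcripts (QuantSeq). The other 14 libraries, 7 wildtype and 7 C3-/-, have both Gne copies and gave the same C3 contrast in mice that the main comparison does not use. Sex, strain and the deleted part of C3 are not given in the sources used here.

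Complement is a cascade of plasma and tissue proteins in which C3 is the point where the classical, lectin and alternative routes meet. Cleaved C3 marks surfaces for uptake by phagocytes, and in the retina microglia are the resident cells that carry receptors for its fragments. The product of Gne catalyses the entry step of sialic acid production. Sialic acid caps the sugar chains on cell surfaces and is read by inhibitory Siglec receptors on microglia, so a shortage of it bears on how strongly complement and microglia are held back. The series crossed the 2 mutations to ask whether changes in Gne+/- retinas depend on complement.

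Total counts ran from 13.5 to 27.8 M in the 13 libraries. Sequencing run 1 held 5 Gne+/- and 4 Gne+/- C3-/- libraries, and run 2 held 2 of each, so every test below has a term for the run. Retinal markers were high throughout, with Gnat1, the rod transducin subunit, between 4060 and 9320 CPM (the count relative to the library total, scaled by edgeR's TMM factors). Transcripts of Y-linked genes were above 10 CPM in 4 of the Gne+/- and 4 of the Gne+/- C3-/- libraries, 2 in each run of each group. Lens genes summed to between 4.91 and 1800 CPM in Gne+/- (median 168) and between 8.66 and 176 CPM in Gne+/- C3-/- (median 45.5). In bulk tissue, fewer cells of a type and less RNA per cell cannot be told apart. The p-values measure the spread between these mice, and intervals on single counts cover counting error only, since reads amplified by PCR and not tagged by molecule can be copies of each other.

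Few genes passed the test between the C3 genotypes on the Gne+/- background. Of 17409 genes tested with edgeR's quasi-likelihood test, 33 passed a Benjamini-Hochberg adjusted p of 0.05 (0.19%), with 16 higher (0.0919%) and 17 lower (0.0977%) in Gne+/- C3-/- than in Gne+/-. Of these 33 genes, 25 are protein coding, 3 are processed pseudogenes and 6 have provisional symbols, of which 1 is named further on. All 33 had the same sign in both runs. In 30 of them the groups did not overlap within run 1 nor within run 2, which held for 132 of all tested genes (0.758%). At an unadjusted p below 0.05 there were 1114 genes. The log2 fold change exceeded 1 in size in 19 of the 33. The count depended on the method: DESeq2 called 87, and only 13 passed when the run was left out of the model.

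C3 itself was the check of the genotype. C3 (ENSMUSG00000024164, chromosome 17, 57203970 to 57228136, GRCm38) measured 128.5, 124.6, 118.5, 100.9 and 285.1 CPM in the run 1 Gne+/- mice and 95.6 and 75.9 CPM in those of run 2. In the Gne+/- C3-/- mice it measured 0.546, 0.967, 1.69 and 1.83 CPM in run 1 and 0.414 and 0 CPM in run 2. Every Gne+/- C3-/- library lay far below every Gne+/- library. The log2 fold change was -7.26 (SE 0.673, adjusted p = 7.02e-07 by edgeR's quasi-likelihood test). Gne, heterozygous in both groups, measured 13 to 56.7 CPM (median 48.2) in Gne+/- and 13 to 44 CPM (median 36.1) in Gne+/- C3-/-, a difference of -0.23 (SE 0.134, adjusted p = 0.815).

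The most significant calls fell on copies of one ribosomal protein gene. Rps13 encodes a protein of the small ribosomal subunit and has processed pseudogenes that share nearly all of its coding sequence. The last 60 of its 453 coding bases are shown with the matching stretch of both copies, because it holds every coding base that separates them (GENCODE M21 transcripts, GRCm38). Capitals mark the 2 positions that differ. The Rps13 stretch is spliced from chr7:116332379-116332407 and chr7:116331553-116331583, minus strand. Rps13-ps1 lies at chr8:87048113-87048172, plus strand, and Rps13-ps2 at chr7:88530446-88530505, minus strand.
Rps13: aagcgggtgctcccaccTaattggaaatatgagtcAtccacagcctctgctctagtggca
Rps13-ps1: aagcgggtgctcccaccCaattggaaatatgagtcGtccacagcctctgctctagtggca
Rps13-ps2: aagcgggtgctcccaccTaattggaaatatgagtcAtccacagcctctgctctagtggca
Counted from the first base of the start codon, Rps13-ps1 differs from Rps13 by T411C and A429G and is 99.56% identical over the coding sequence. Rps13-ps2 has no difference there. The first 43 of the 48 transcript bases that follow the coding sequence are also identical in Rps13-ps1. The annotated Rps13-ps2 ends with the coding sequence, so the bases that follow it there were not compared.

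Counts moved between these copies with the C3 genotype. Rps13-ps1 measured 94 to 346 CPM (median 262) in Gne+/- and 0.591 to 6.07 CPM (median 3.41) in Gne+/- C3-/-, a log2 fold change of -6.25 (SE 0.429, adjusted p = 1.82e-09 by edgeR). Rps13-ps2 had 1 count in all Gne+/- libraries together and 899 in the Gne+/- C3-/- libraries, a ratio of CPM of 1240 (95% interval 222 to 49000). Rps13 itself held between 0 and 35% of the summed CPM of the 3 in Gne+/- and between 93.7 and 99.4% in Gne+/- C3-/-. In Gne+/- this share reached 4.73% at most in run 1 and was 34.5 and 35% in the run 2 libraries. The test left Rps13 just outside the threshold, with a log2 fold change of 4.85 (adjusted p = 0.06). The sum of the 3 was 254 ± 85.2 CPM (SD, n = 7) in Gne+/- and 304 ± 95.2 CPM (SD, n = 6) in Gne+/- C3-/-. With so few differing bases in the stretches compared, the level of each single copy is uncertain.

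**Figure D1:**
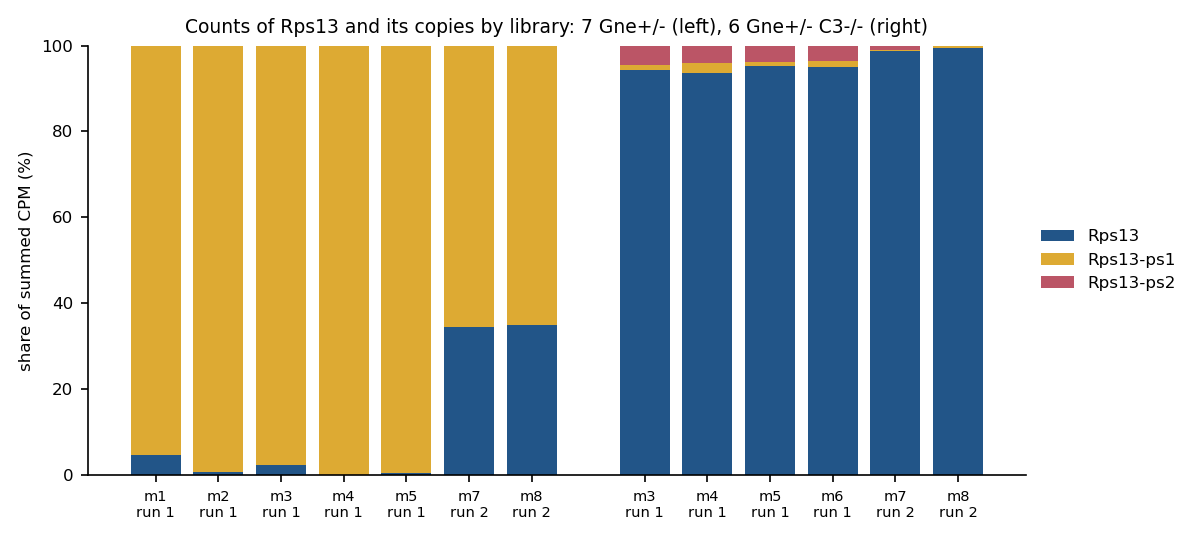
Share of the summed CPM of Rps13 and its copies Rps13-ps1 and Rps13-ps2 in each of 7 Gne+/- (left) and 6 Gne+/- C3-/- (right) libraries, labelled by mouse (m) and run. Rps13-ps1 takes most of the sum in every Gne+/- library and Rps13 at least 93.7% in every Gne+/- C3-/- library.

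A further ribosomal protein gene on chromosome 7 was higher too. Rps15a (chromosome 7, 118104372 to 118116188), also of the small subunit, measured 1.94 to 49.8 CPM (median 11.3) in Gne+/- and 147 to 449 CPM (median 217) in Gne+/- C3-/-. The groups did not overlap in either run, and the log2 fold change was 3.93 (SE 0.669, adjusted p = 0.00681). It was 4.72 in run 1 and 1.68 in run 2, where the Gne+/- levels were higher. Ribosomal protein genes have many near-identical copies, so this level may be uncertain too. Copies of Rps15a were not examined, and whether its reads are shared with them was not tested. Its neighbour Arl6ip1, which shapes the endoplasmic reticulum membrane, rose by 0.72 (SE 0.142, adjusted p = 0.0126), from 143 to 403 CPM (median 235) to 207 to 618 CPM (median 368). Here the run 1 groups overlapped: Gne+/- mouse 5, at 403 CPM, lay above some Gne+/- C3-/- mice.

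Some genes were present in one group and at or near 0 in the other. Trim12a, of the antiviral TRIM family (chromosome 7, 104299894 to 104315466), had 0 counts in all 7 Gne+/- libraries and 462 counts in Gne+/- C3-/-, where it measured 2.37 to 7.21 CPM. Against a floor of 3 counts over the Gne+/- group it was at least 212-fold higher. Olfr607, an olfactory receptor gene of the same chromosome, showed the reverse, with 313 counts in Gne+/- and 0 in Gne+/- C3-/-, at least 75.8-fold lower on the same kind of floor. Mrpl48-ps, a processed copy of a mitochondrial ribosomal protein gene on chromosome 4, had 780 counts in Gne+/- and 1 in Gne+/- C3-/-, a ratio of 566 (95% interval 101 to 22400). Pot1b, a telomere end-binding protein (chromosome 17, 55651951 to 55712628), rose by 3.02 (SE 0.504, adjusted p = 0.00184), from 0.0508 to 16.2 CPM (median 0.945) to 10.6 to 30.3 CPM (median 17.9). The highest Gne+/- values of Pot1b were those of run 2, where the log2 fold change was 1.21 against 4.19 in run 1.

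The genes that rose at ordinary levels have varied known roles. Heatr5a, a HEAT repeat protein (chromosome 12, 51875871 to 51971321), measured 31.2 to 61 CPM in Gne+/- (median 55.7) and 83.8 to 150 CPM in Gne+/- C3-/- (median 108). The groups did not overlap, and the log2 fold change was 1.18 (SE 0.127, adjusted p = 4.36e-07). Rab6a, a small GTPase of Golgi transport, went from a median of 192 to 338 CPM, a log2 fold change of 0.93 (SE 0.151, adjusted p = 0.00114), with 0.99 in run 1 and 0.74 in run 2. Arhgap31, which switches off the GTPases Cdc42 and Rac1, measured 22 to 58.7 CPM in Gne+/- and 63.6 to 102 CPM in Gne+/- C3-/-. Its log2 fold change was 1.17 (SE 0.193, adjusted p = 0.00114). Cers5, a ceramide synthase, rose by 0.89 (SE 0.161, adjusted p = 0.00402), with medians of 62.2 and 107 CPM. Trappc12, a subunit of the TRAPP trafficking complex, rose by 0.79 (adjusted p = 0.027) and did not overlap between the groups, at 35.6 to 55.6 and 61.8 to 89.1 CPM. Its change was 0.92 in run 1 and 0.45 in run 2.

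The other named genes that rose were Aldh7a1, Vwc2l, Ints4 and Pde6c. Aldh7a1, an aldehyde dehydrogenase of lysine breakdown, had medians of 69.8 CPM in Gne+/- and 107 CPM in Gne+/- C3-/- (log2 fold change 0.66, adjusted p = 0.0126), with 0.80 in run 1 and 0.32 (SE 0.232) in run 2, where the groups overlapped. Vwc2l, a small secreted protein, measured 15.9 to 60.2 and 62.3 to 108 CPM (log2 fold change 1.30, adjusted p = 0.0358), with 1.76 in run 1 and 0.34 (SE 0.308) in run 2. Ints4, a subunit of the Integrator complex that processes small nuclear RNA, had medians of 20.3 and 44.9 CPM (log2 fold change 0.91, adjusted p = 0.0368), with 1.12 in run 1 and 0.39 (SE 0.255) in run 2. Pde6c, the catalytic subunit of the cone phosphodiesterase, is taken up with the cone genes further on.

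Slc4a8, Xxylt1, Stk3 and Knstrn were lower in Gne+/- C3-/-. Slc4a8, a sodium-driven chloride and bicarbonate exchanger (chromosome 15, 100761747 to 100823968), measured 65.9 to 126 CPM in Gne+/- (median 71.3) and 20.2 to 45 CPM in Gne+/- C3-/- (median 38.4). No library of one group reached the other, and the log2 fold change was -1.11 (SE 0.175, adjusted p = 0.000623). Xxylt1, which extends the xylose chain on Notch, fell from a median of 25.4 to 8.76 CPM (log2 fold change -1.52, SE 0.285, adjusted p = 0.00708). Its change was -1.95 in run 1 and -0.60 in run 2. Stk3, the Hippo pathway kinase MST2, fell from a median of 66.8 to 34 CPM (log2 fold change -0.84, SE 0.162, adjusted p = 0.00991), by a like amount in run 1 (-0.89) and run 2 (-0.77). Knstrn, a protein of the mitotic spindle, fell from a median of 56.3 to 26.8 CPM (log2 fold change -0.88, adjusted p = 0.016).

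Prdm1, Sp1 and Kat2b, which act on transcription, fell as well. Prdm1, the repressor Blimp1, which favours photoreceptor over bipolar fate in the developing retina, measured 35.5 to 88 CPM in Gne+/- (median 53.6) and 24.6 to 44.7 CPM in Gne+/- C3-/- (median 30.9). Its values were higher in run 2 in both groups, and within each run the groups did not overlap (log2 fold change -0.76, SE 0.165, adjusted p = 0.0358). Sp1, a broadly used transcription factor, had medians of 39.3 and 16 CPM (log2 fold change -0.95, adjusted p = 0.0368). Kat2b, the histone acetyltransferase PCAF, had medians of 149 and 63.3 CPM (log2 fold change -0.75, adjusted p = 0.0464). For Sp1 and Kat2b the change was smaller in run 2 (-0.28 in each) than in run 1 (-1.22 and -0.99).

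Among the named genes, the calls nearest the threshold were lost when single mice were left out. Of 27 named genes, 16 stayed past the threshold whichever of the 13 libraries was left out, among them C3, Heatr5a, Rab6a, Arhgap31, Cers5, Slc4a8, Xxylt1, Stk3, Pot1b and Rps15a. The other 11 lost the call without at least 1 mouse and kept their sign. Arl6ip1 lost it without Gne+/- C3-/- mouse 5 or 6 (adjusted p up to 0.0785), and Aldh7a1 without Gne+/- C3-/- mouse 3 or 4 (up to 0.0781). Knstrn lost it without Gne+/- mouse 1 or 7 or Gne+/- C3-/- mouse 3 or 6 (up to 0.0806). Ints4 lost it without Gne+/- mouse 2, 3, 4 or 5 or Gne+/- C3-/- mouse 3, 5, 6 or 8 (up to 0.156). For Vwc2l the mice were Gne+/- 1 to 5 and Gne+/- C3-/- 3 to 6 (up to 0.113), and for Trappc12 they were Gne+/- 1, 2, 3, 4 and 8 and Gne+/- C3-/- 3 to 6 (up to 0.0849). Sp1 lost it without any one of Gne+/- mice 1, 3 and 4 or of all 6 Gne+/- C3-/- mice (up to 0.145). Kat2b lost it without any one of Gne+/- mice 1 to 4 or of the Gne+/- C3-/- mice but mouse 7 (up to 0.162). Prdm1 lost it in 11 of 13 such fits, all but those without Gne+/- mouse 4 or 5 (up to 0.124). Its log2 fold change stayed between -0.82 and -0.7 in all 13. Without Gne+/- C3-/- mouse 3, 20 genes in all were called.

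The same genes were then read in the mice with both Gne copies. C3-/- against wildtype called 29 genes (0.167%), and 18 were called in both comparisons, 54.5% of the 33 and 62.1% of the 29. All 33 genes had the same sign in C3-/- against wildtype, where 56.5% of all tested genes shared their sign between the comparisons. The 2 comparisons have no library in common and share the estimate of spread of 1 fit. In run 1, Y-linked genes were above 10 CPM in 4 of 4 C3-/- and 0 of 5 wildtype libraries. In run 2 they were above it in 0 of 3 C3-/- and 2 of 2 wildtype libraries. Within each run, C3 genotype and Y-linked expression thus cannot be told apart in C3-/- against wildtype. The test of the difference of the C3 effects has the same limit. Heatr5a changed by 1.18 on the Gne+/- background and by 1.27 (SE 0.124) with both copies, Slc4a8 by -1.11 and -1.22 (SE 0.168), and Rab6a by 0.93 and 0.91 (SE 0.147). These pairs of values differ by less than their errors.

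The 15 genes called on the Gne+/- background alone also all kept their sign with both Gne copies. Cd47 changed by -0.70 (SE 0.152) and -0.51 (SE 0.147), Pde6c by 0.72 (SE 0.15) and 0.57 (SE 0.146), and Prdm1 by -0.76 (SE 0.165) and -0.69 (SE 0.158). Larger gaps were seen for Stk3, at -0.84 and -0.38 (SE 0.155), and Trappc12, at 0.79 and 0.26 (SE 0.16). The difference between the C3 effects was tested directly: 0 of 17409 genes passed (0%) with edgeR, 0 with DESeq2 and 0 with limma-voom, and 554 had an unadjusted p below 0.05. Of the 33 genes, 3 were among these 554, singled out here after their values were seen. The C3 effects differed by -0.46 (SE 0.222) for Stk3, 0.53 (SE 0.231) for Trappc12 and -1.30 (SE 0.381) for the non-coding A930014E10Rik, each with an adjusted p of 1 by edgeR. With no filter on low counts, the same edgeR test called 30 genes.

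**Figure D2:**
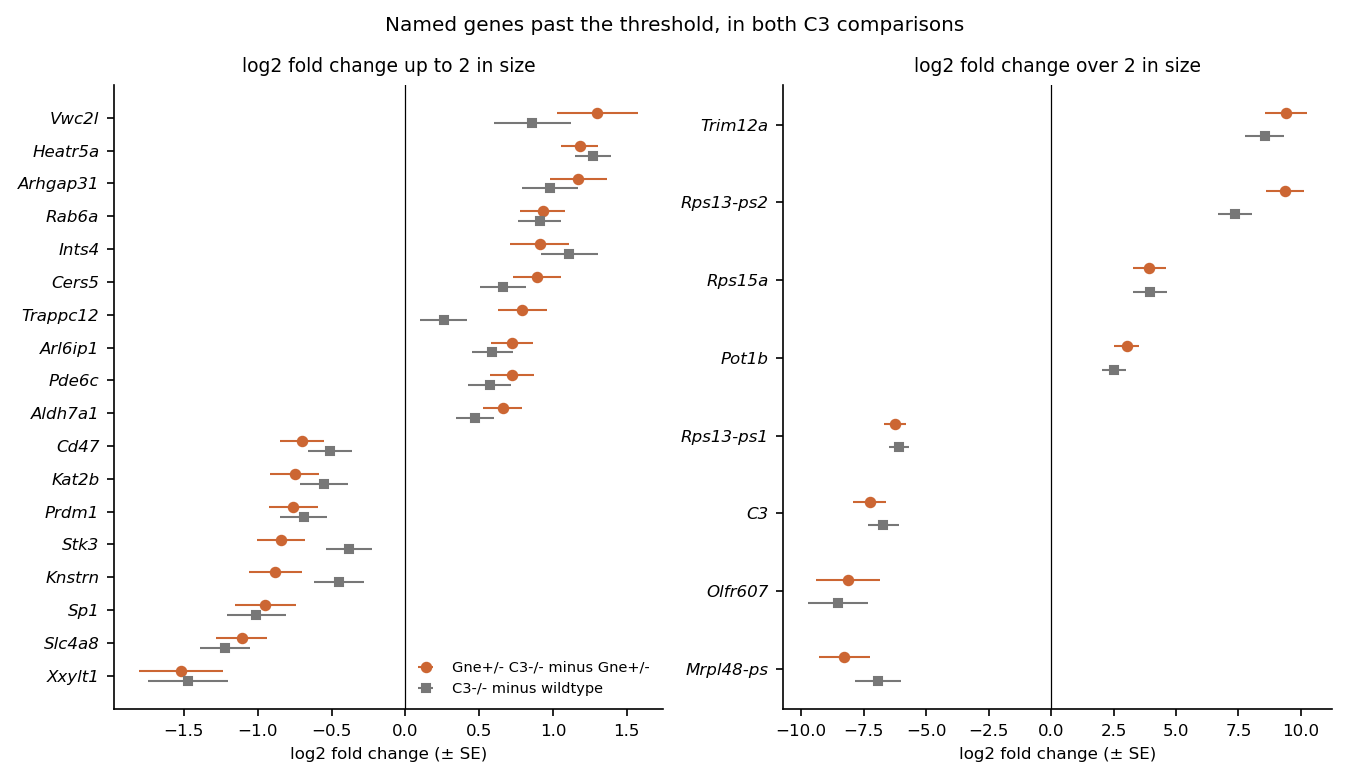
Log2 fold change with its standard error for 26 named genes past the threshold, in Gne+/- C3-/- minus Gne+/- (circles) and C3-/- minus wildtype (squares), with smaller changes left and larger changes right on separate scales. Both symbols lie on the same side of 0 for each gene.

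Many of the called genes lay close to another called gene. Joining called genes at most 10 Mb apart gave 21 segments, of which 5 held more than 1 called gene and 17 of the 33 genes. The largest, on chromosome 7 from 84528954 to 104315466, held 7 called genes of 141 tested, with Rps13-ps2, Ints4, Rab6a, Olfr607 and Trim12a among them. Rps15a and Arl6ip1 formed a second segment on chromosome 7. Cers5, Slc4a8 and Sp1 lay within 2.7 Mb on chromosome 15, and Xxylt1 and Arhgap31 within 7.76 Mb on chromosome 16. On chromosome 17, Kat2b, Pot1b and C3 lay within 3.66 Mb. With a distance of 5 Mb, the segments numbered 23, and 15 genes lay in the 5 that held more than 1. How many of 33 genes would lie so close by position alone was not tested.

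Chromosomes 7, 12, 15, 16 and 17, chosen after these positions were seen, held 22 of the 33 called genes (66.7%) and 23.2% of the tested genes. Of the 18 genes called in both C3 comparisons, 16 lay on these chromosomes. The largest segment held 5 higher and 2 lower genes, and Rps15a and Arl6ip1 were both higher. In the 5 Mb on either side of C3, 73 other genes were tested, of which 46 had positive and 27 negative values (median 0.07), and 1 higher and 1 lower gene passed the threshold. An effect of C3 loss and one of sequence inherited with the C3 mutation from another strain cannot be told apart in this design.

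**Figure D3:**
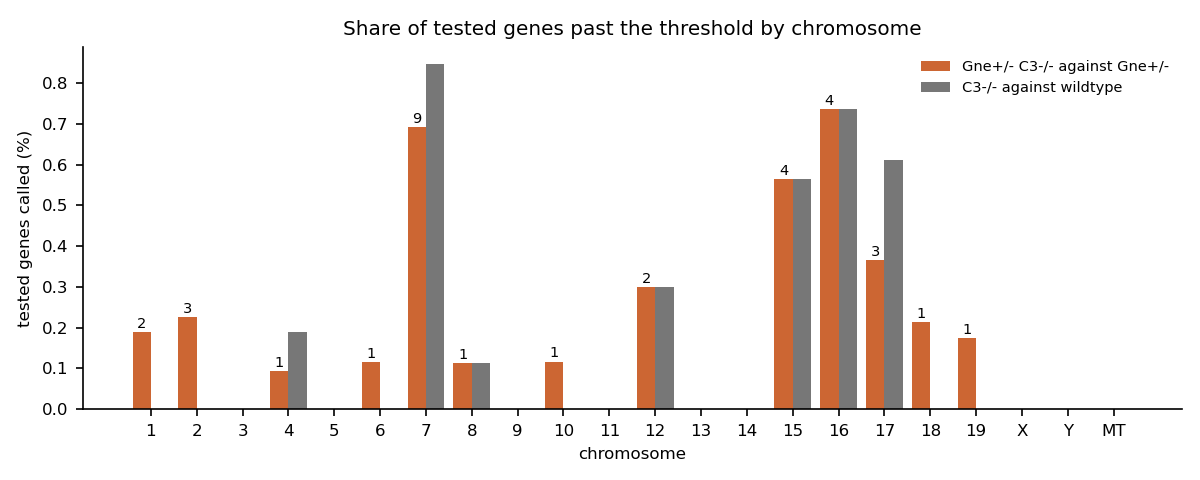
Share of tested genes past the threshold on each chromosome, in percent, for Gne+/- C3-/- against Gne+/- (orange, with the number of genes above the bar) and C3-/- against wildtype (grey). The highest shares of the first comparison are on chromosomes 16, 7, 15 and 17.

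The remaining complement genes did not pass the test, in any of the 5 complement lists. The level of C1qa, a chain of the initiating C1q molecule, was 4.69 to 21.5 CPM (median 6.71) in Gne+/- and 2.79 to 12.8 CPM (median 5.78) in Gne+/- C3-/-, a log2 fold change of -0.42 (SE 0.368, adjusted p = 0.882). C1qb and C1qc, the other chains, gave -0.40 (SE 0.774) and 0.54 (SE 0.415), with adjusted p-values of 0.96 and 0.862. The groups overlapped widely for all 3 chains, and their signs were not the same. Over the classical and lectin initiators, 5 of 8 tested members were positive (median 0.17). The median was -0.16 within run 1 and 1.06 within run 2, beside -0.01 over all tested genes, of which 8578 were positive and 8831 negative.

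Downstream of C1q, C4b, which is cleaved to build the C3 convertase, measured 0.978 to 3.73 CPM (median 2.97) and 0 to 4.73 CPM (median 2.87). Its log2 fold change was 0.38 (SE 0.634, adjusted p = 0.951), with 0.88 in run 1 and -2.31 in run 2. Cfb, of the alternative pathway, was not tested: 99.4% of its span overlaps other genes, whose shared reads the counting leaves out, and it had 13 counts in all 27 libraries. Of the terminal components, 2 of 6 had enough counts to be tested.

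Regulators that hold the cascade back gave values of both signs, with 11 of 18 positive and a median of 0.15. Cfi, the protease that inactivates C3b, measured 0.0556 to 2.36 CPM (median 1.32) in Gne+/- and 2.30 to 4.98 CPM (median 3.48) in Gne+/- C3-/-. The groups barely overlapped, but the values are low and the log2 fold change of 1.36 (SE 0.688) had an adjusted p of 0.787. It was 1.92 in run 1, 0.27 in run 2 and 0.10 in C3-/- against wildtype. Cd59a, which blocks the membrane attack complex, had medians of 168 and 119 CPM (log2 fold change -0.39, SE 0.219, adjusted p = 0.815), with opposite signs in run 1 (-0.70) and run 2 (0.30). Clu, a secreted inhibitor of the same complex, had medians of 562 and 517 CPM (log2 fold change -0.11, SE 0.178, adjusted p = 0.951). Cd55, with 75 counts in 27 libraries, was not tested.

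For the receptors, 3 of 8 tested members were positive (median -0.09). C3ar1, the receptor for the C3a fragment, measured 0.152 to 5.19 CPM (median 3.46) in Gne+/- and 1.83 to 3.28 CPM (median 2.27) in Gne+/- C3-/- (log2 fold change -0.06, SE 0.724, adjusted p = 0.998). C5ar1, the receptor for C5a, had a highest level of 1.37 CPM in Gne+/- and 0.932 CPM in Gne+/- C3-/-, too low to compare. Itgb2, the beta chain of complement receptor 3, measured at most 1.77 CPM in the 13 libraries (log2 fold change -1.10, SE 1.3, adjusted p = 0.919). Itgam, of the same list, had 0 counts and was not tested, with 99.9% of its span overlapping other genes. Cd93, a C1q-associated surface protein, measured 0.15 to 5.02 CPM and 4.14 to 10.9 CPM (log2 fold change 1.26, SE 0.582, adjusted p = 0.765).

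Microglial identity genes gave no call either. Cx3cr1, the fractalkine receptor, measured 7.56 to 12.5 CPM (median 9.58) in Gne+/- and 4.92 to 14.7 CPM (median 12.2) in Gne+/- C3-/- (log2 fold change 0.16, SE 0.307, adjusted p = 0.958). Csf1r, the receptor on which microglia depend for survival, had medians of 6.77 and 10.1 CPM (log2 fold change 0.38, SE 0.364, adjusted p = 0.891). Tmem119 gave 0.94 (SE 0.68), Aif1 0.25 (SE 1.2) and Trem2 -0.18 (SE 1.06). Over the homeostatic list, 8 of 13 were positive (median 0.16), and over the activation and lysosome list, 13 of 21 (median 0.10). Cd68, a lysosomal marker of activated microglia, gave 1.05 (SE 1.01, adjusted p = 0.896) at medians of 0.47 and 1.59 CPM. The standard errors show that these low counts could not resolve changes of the size seen for Heatr5a in Tmem119, Aif1, Trem2 and Cd68. P2ry12, P2ry13 and Gpr34 of the homeostatic list had 0 counts and were not tested, with 100% of each span overlapping other genes.

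Cd47 was the 1 call among the phagocytosis genes. It encodes the surface signal that restrains phagocytes through the receptor Sirpa. Its level was 345, 331, 364, 286 and 418 CPM in the run 1 Gne+/- mice and 192 and 178 CPM in run 2, against 165, 167, 195 and 214 CPM (run 1) and 152 and 169 CPM (run 2) in Gne+/- C3-/-. The groups separated widely in run 1 and narrowly in run 2, where the log2 fold change was -0.21 against -0.93. The pooled value was -0.70 (SE 0.152, adjusted p = 0.0358). The call was lost without any one of Gne+/- mice 1, 2, 3 and 5 or Gne+/- C3-/- mice 3 to 7 (adjusted p up to 0.145), and with the lens score as a covariate (adjusted p = 0.0836). The chromosome 16 position of Cd47, 49800533 to 49915010, is outside the segment of Xxylt1 and Arhgap31. Sirpa gave -0.35, and over the list 5 of 14 were positive, with a median of -0.12. The bridging and receptor genes Mertk (0.28), Axl (0.66) and Mfge8 (0.22) did not pass.

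Pde6c was the only call among 16 tested cone genes. Gne+/- mice had 81, 86.5, 119, 158 and 148 CPM in run 1 and 55.4 and 60.4 CPM in run 2, and Gne+/- C3-/- mice had 262, 187, 202, 182 and, in run 2, 87.6 and 77.4 CPM. The groups did not overlap within either run, and the log2 fold change was 0.72 (SE 0.15, adjusted p = 0.0245). The call was lost without Gne+/- mouse 1, 2 or 3 or Gne+/- C3-/- mouse 3 or 7 (adjusted p up to 0.114), and the lens covariate took the adjusted p to 0.0524. Of the cone list, 10 of 16 were positive, with a median of 0.07. Arr3, cone arrestin, gave 0.37 (SE 0.141, adjusted p = 0.661) and Opn1sw, the short-wave opsin, 0.02 (SE 0.139, adjusted p = 0.993). Of the rod list, 12 of 18 genes were positive (median 0.15).

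Bipolar cells relay photoreceptor signals and are the cells named in the title of the series. No bipolar gene passed the test. In the OFF and cone bipolar list, 15 of 20 members were positive with a median of 0.21, which was 0.17 in run 1 and 0.21 in run 2. Grik1, a kainate receptor subunit on OFF bipolar dendrites, measured 282 to 642 CPM (median 385) and 376 to 698 CPM (median 570), a log2 fold change of 0.31 (SE 0.136, adjusted p = 0.731). Lhx3 gave 0.64 (SE 0.258, adjusted p = 0.705) and Syt2 0.39 (SE 0.179, adjusted p = 0.761). In the rod and ON bipolar list, 10 of 17 were positive (median 0.11). Prkca, protein kinase C alpha of rod bipolar cells, gave 0.20 (SE 0.127), and Trpm1, their transduction channel, 0.28 (SE 0.149). Their adjusted p-values were 0.833 and 0.802. Rbpms, a ganglion cell marker, gave -0.17 (SE 0.173), and 10 of 15 ganglion cell genes were positive (median 0.22).

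**Figure D4:**
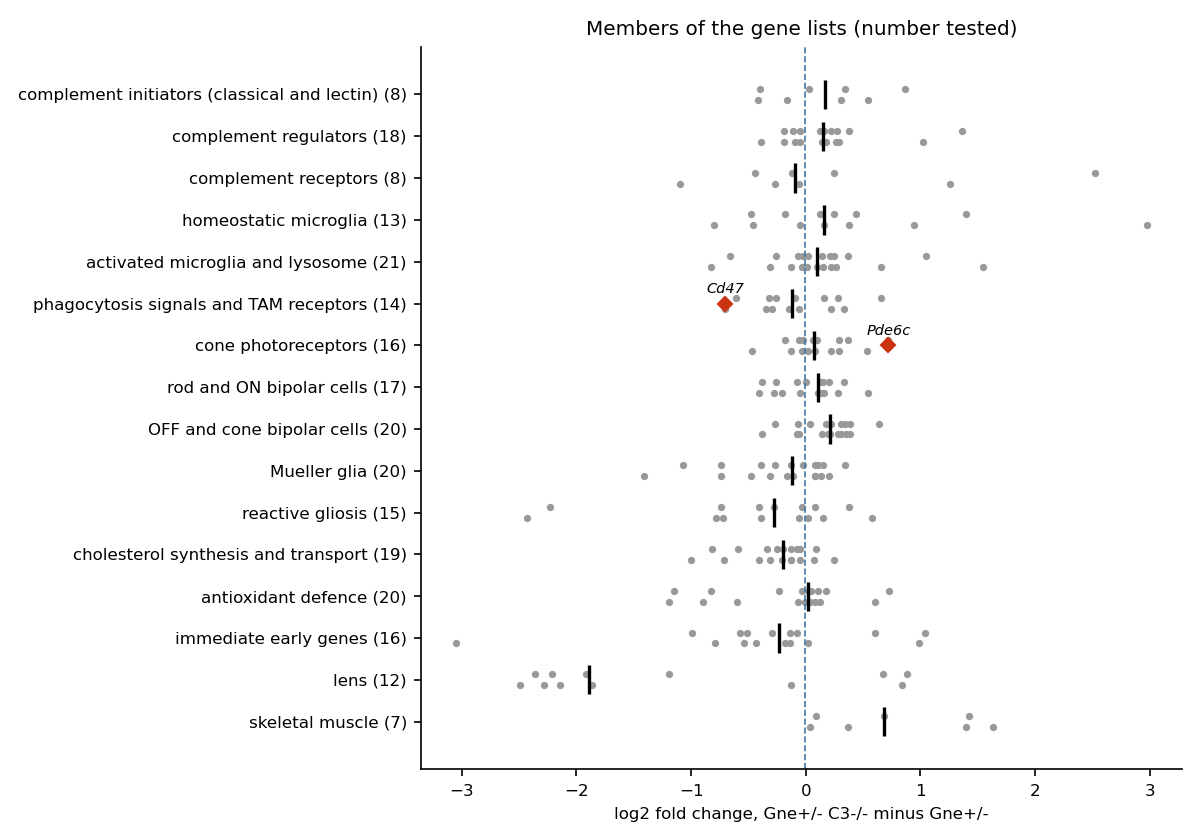
Log2 fold change of each tested member (grey points) of 16 gene lists in Gne+/- C3-/- minus Gne+/-, with the list median as a black bar, the median of all tested genes as a dashed line and the number tested in brackets. Diamonds mark the members past the threshold, Cd47 and Pde6c.

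The reactive gliosis and Mueller glia lists gave more negative than positive values and no call. The reactive gliosis list had 10 of 15 members negative and a median of -0.28, with -0.33 in run 1 and -0.34 in run 2. Gfap, the filament protein of astrocytes and stressed Mueller glia, measured 1.7 to 28.3 CPM (median 7.52) and 0.975 to 10.1 CPM (median 7.47), a log2 fold change of -0.78 (SE 0.407, adjusted p = 0.801). Serpina3n, an acute-phase protease inhibitor, gave -2.43 (SE 0.848, adjusted p = 0.597), and Cd44, a surface receptor for hyaluronan, -0.74 (SE 0.24, adjusted p = 0.515). The Mueller glia list had 12 of 20 negative (median -0.12), beside 8831 of all 17409 tested genes. Rlbp1, a retinoid carrier of Mueller glia, gave 0.34 (SE 0.19, adjusted p = 0.814) and Aqp4, their water channel, -0.74 (SE 0.237, adjusted p = 0.483).

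No lens gene passed the test, and the list had a median of -1.89 over 12 tested members, 9 of them negative. The median was -2.62 in run 1 and 3.04 in run 2, so the direction was not shared by the runs. Mip, the lens water channel, measured 2.48 to 33.1 CPM in Gne+/- and 0 to 2.90 CPM in Gne+/- C3-/- (adjusted p = 0.682). With the lens score in the model, 27 genes were called in place of 33. Beside Cd47 and Pde6c, the named genes that lost the call were Sp1 (adjusted p = 0.145), Kat2b (0.105), Prdm1 (0.0746), Ints4 (0.0746) and Trappc12 (0.0636), each with its sign kept. Skeletal muscle genes were positive in 7 of 7 (median 0.68). Their summed level was 9.5 to 17.7 CPM in Gne+/- and 11.8 to 75.2 CPM in Gne+/- C3-/-, where mouse 3 was highest and the next was at 19.4 CPM.

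In cholesterol synthesis and transport, 16 of 19 members were negative (median -0.20, with -0.25 in run 1 and -0.22 in run 2). Abca1, the cholesterol exporter, measured 30.3 to 64.3 CPM (median 48.6) and 21.6 to 42 CPM (median 31.4), a log2 fold change of -0.59 (SE 0.192, adjusted p = 0.489). Immediate early genes were negative in 12 of 16 (median -0.23), led by Junb at -3.05 (SE 0.881, adjusted p = 0.312). In C3-/- against wildtype, 11 of the 19 cholesterol genes and 13 of the 16 immediate early genes were positive. In the antioxidant list, 11 of 20 were positive (median 0.02), and the metallothioneins Mt2 and Mt1 gave 0.73 (SE 0.185, adjusted p = 0.116) and 0.60 (SE 0.179, adjusted p = 0.326). Over all 40 lists, 530 genes were tested, 2 were called, and 49 (9.25%) had an unadjusted p below 0.05, against 6.4% of all tested genes. The lists were chosen with earlier results of these data known, so no conclusion is drawn from the gap between these shares.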

How the data were processed

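The authors deposited unnormalized whole-number counts for each gene and library. Alignment used STAR 2.7.3a, per the submitters' processing notes, and counting used featureCounts 2.0.3 on Ensembl release 101 (GRCm38), per the file headers. Exons and whole genes were both counted, without strand, and reads shared by overlapping genes were left out, per the file headers. In R 4.3.3 with edgeR 4.0.16, filterByExpr by group (minimum count 10) kept 17409 of 55487 genes. TMM factors, robust dispersions and the quasi-likelihood test were applied to 27 libraries with 4 groups and the run as terms, leaving 22 residual degrees of freedom, with Benjamini-Hochberg adjustment over all tested genes. CPM are relative to TMM-scaled library totals. Standard errors come from the F statistic. Simulated data held known changes between Gne+/- C3-/- and Gne+/-. Of 100 genes changed 2-fold, 13 were called, and of 100 genes changed 4-fold, 57 were called. All of these calls had the right direction. Both sizes of change were placed in the same simulated data, where 2 unchanged genes were called. Data simulated with no change gave 0 calls. Changes of these sizes could thus be missed, so the lack of a call does not show that a gene was unchanged. No duplicate was seen among 78 pairs of libraries of the same group.

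Named genes were Gne, C3, up to 15 higher and 15 lower genes by p, at most 4 members per described list, and set genes of complement, microglia and retina. The members and the 40 lists were chosen with earlier results of these data known. Some genes that the rule takes are not reported here. Alternatives were DESeq2 1.42.0, limma-voom 3.58.1, RLE factors, no or a stricter filter (over 1 CPM in at least 6 libraries), the 13 libraries alone, no run term, each run alone, a mouse number block, Y-linked, lens and surrogate variable (sva 3.50.0) covariates, no robust estimation, and leaving out each library.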

Additional observations from a re-analysis of the deposited data

Results flagged for a closer look

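Within each group, run-centred log2(CPM + 1) of the named genes, and mean log2 CPM of the lists plotted, were searched for a library whose gap to its nearest neighbour was a large share of the group's range, above 0.568 for 7 libraries and 0.625 for 6. Of 140 groups of values, 11 were picked out. The cut-offs are meant to pick about 1 in 20 groups of independent, normally distributed values. The values here are run-centred and come from the same mice, so the chance rate of this search is not known.

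Gne+/- mouse 5 was the highest of its group for C3 (285.1 CPM against 100.9 to 128.5 CPM in the other run 1 mice, gap ratio 0.572), Slc4a8 (126.4 against 65.9 to 79 CPM, 0.694), Arl6ip1 (403.4 against 210.4 to 246.3 CPM, 0.601) and Rlbp1 (1207 against 429.2 to 592.3 CPM, 0.621). C3 and Slc4a8 stayed past the threshold without this mouse. Gne+/- C3-/- mouse 3 was the lowest for Slc4a8 (20.2 against 42 to 45 CPM, 0.703) and Clu (370.9 against 663.3 to 713.5 CPM, 0.639).

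Gne+/- mouse 4 was low for C1qc (0.611 against 4.51 to 8.53 CPM, gap ratio 0.66), and Gne+/- C3-/- mouse 4 for Csf1r (4.91 against 12.6 to 15.2 CPM, 0.641). Rps13-ps2 had its only Gne+/- count in mouse 3 (gap ratio 0.8). The complement regulator score was lowest in Gne+/- mouse 3 (gap ratio 0.69), and the cone score was highest in Gne+/- C3-/- mouse 5 (gap ratio 0.627).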

How the results depend on the processing

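In place of 33 called genes, DESeq2 gave 87, limma-voom 56, no filter on low counts 306 (71 higher and 235 lower), the 13 libraries alone 20, no run term 13 and run 2 alone 11. Leaving out 1 library gave 20 to 40, lowest without Gne+/- C3-/- mouse 3 and highest without Gne+/- mouse 7. The difference of the C3 effects gave 30 genes with no filter. C3-/- against wildtype gave 63 with DESeq2, 69 with limma-voom, 91 with no filter and 13 with no run term, in place of 29. The causes were not tested, though fewer libraries entered the run 2 and 13-library fits. For 27 named genes, 727 values under these alternatives gave 564 calls kept, 163 lost and 0 reversed signs. Correlations of same-numbered deviations ran from -0.024 to 0.18. These few values cannot settle whether the mouse numbers pair the samples. With the mouse numbers as a replicate block, 27 genes were called. RLE factors moved list medians by at most 0.02. The signs of 16 of 40 list medians differed between the runs. Levels near 1 CPM, as for Aif1 and Trem2, limit what could be seen of microglia.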
